A study of Homo sapiens with 4 samples.

Results

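Aminoacyl-tRNA synthetases are the enzymes that load each tRNA with its amino acid before the tRNA enters the ribosome. Human cells run separate machineries for this step. The mitochondrial enzymes serve the ribosomes inside mitochondria, which make core subunits of the respiratory chain, and the cytosolic enzymes serve the ribosomes that translate nuclear messages. All of them are encoded in the nucleus. The genes were taken by symbol, as every gene named with a 1-letter amino acid code followed by ARS and the number 1, 2 or 3, together with EPRS1, FARSA and FARSB. This rule used no measured value and found 36 of the 22458 genes with 1 symbol on the array, of which 16 code for mitochondrial enzymes, 18 for cytosolic enzymes, and 2, GARS1 and KARS1, for enzymes that act in both places.

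RNA came from LN229, an established human glioblastoma cell line, 48 h after transfection with a pool of siRNAs against RAB38 (siRAB38, 2 arrays) or with a nontargeting siRNA pool (NT, 2 arrays). Both groups were the same unmodified cells in medium brought to 1.5% serum, so the siRNA pool was the only difference in the labels. Each value is a log2 expression value from an Affymetrix array, and a log2 fold change is the siRAB38 mean minus the NT mean. Separate cultures are not stated for the arrays of either group in the labels or the methods, so each p-value reflects array-to-array spread alone, and that spread may be technical. An exact permutation test of 2 arrays against 2 cannot go below a two-sided p of 0.333, and limma, which pools the spread over all genes, was used instead.

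RAB38, the silenced small GTPase, had log2 values of 2.52 and 3.43 in siRAB38 arrays and of 4.69 and 4.78 in NT arrays, which is 29.6% of the NT level (log2 fold change -1.76, SE 0.30, adjusted p = 0.72, limma). The first siRAB38 array was the lower one. Both siRAB38 values lay below the array medians (3.47 to 3.51), so this percentage rests on dim signals. Of the cell type markers, VIM lay between 11.25 and 11.36 on all arrays, and GFAP, the astrocyte filament, between 2.81 and 3.35. PTPRC, which marks leukocytes, lay between 1.24 and 1.35, but CD68, another immune marker, between 7.51 and 8.27. KRT18, an epithelial marker, lay between 6.68 and 6.89, and MAP2, a neuron marker, between 7.06 and 7.21. Levels of single markers are therefore not read as the presence or absence of a cell type. Some markers did separate the groups. Of 9 glioma markers 2 were lower and 2 higher, and of 6 neuron markers 1 was lower and 2 higher. Of 6 immune and of 4 endothelial markers 1 each was lower, and of 5 epithelial markers 1 was higher. Over all genes, 17.2% separated on the lower and 18.8% on the higher side, so these counts do not set the markers apart. SNAP25, a synaptic protein gene, stood out among the markers. It had 6.68 and 6.77 in siRAB38 arrays and 6.09 and 6.09 in NT arrays (log2 fold change 0.64, SE 0.11). S100B, a glial marker, had a log2 fold change of 0.27 (SE 0.11). The part of these genes in the synthetase values was not tested. An adjusted p of 0.05 was passed by no gene in limma (0% of 22458, smallest adjusted p = 0.697), and 1539 had an unadjusted p under 0.05. The methods name ANOVA and t-tests for the study in general and refer to earlier work for the arrays. A gene-by-gene t-test with equal variances also passed 0 genes after adjustment and had 1473 under the unadjusted threshold. The levels of the synthetase genes are therefore described with their spread, and none is called changed.

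Many synthetase genes carry short regulatory sequences near their start, and stretches that bear on the comparisons here are shown first, namely the ATF4 element, the interferon element of WARS1 and the region that HARS1 and HARS2 share. ATF4, the transcription factor of the amino acid and stress response, binds with C/EBP partners to a composite element. The element was searched as TGATGNAA on both strands, in windows from 250 bases before to 50 bases after each RefSeq gene start (GRCh38.p14). Of the 36 genes, 30 had such a window. The letters stood in 1 of 14 mitochondrial, 6 of 14 cytosolic and 1 of 2 dual genes with a window, against 4.46% of all 27305 genes with one. The stretches are written in the direction of the gene, with the match in capitals.
TARS1, chr5:33440959-33440982, plus strand: cctttcgaTTGCATCAgctggtcc
GARS1, chr7:30594837-30594860, plus strand: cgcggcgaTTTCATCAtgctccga
IARS1, chr9:92293695-92293718, minus strand: tcagcgcgTTGCATCAcctccgtg
CARS1, chr11:3057410-3057433, minus strand: ggcggcggTTGCATCAgattctag
MARS1, chr12:57488056-57488079, plus strand: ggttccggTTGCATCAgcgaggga
AARS1, chr16:70289678-70289701, minus strand: tctcgcagTTGCATCAgccaagtt
NARS1, chr18:57621807-57621830, minus strand: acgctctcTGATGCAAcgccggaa
YARS2, chr12:32756079-32756102, minus strand: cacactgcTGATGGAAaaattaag
In these 8 genes the log2 fold changes ran from -0.13 to 0.18 with a median of -0.05, and 7 were below 0. The 22 genes with a window but without the letters had a median of -0.09, and 18 of them were below 0. A match is a string of letters, not a measured binding site.

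WARS1, the cytosolic tryptophan enzyme and a classic interferon-induced gene, held the core letters of the interferon response element (GAAA, 2 bases of any kind, GAAA), as did EARS2, the mitochondrial glutamate enzyme. This string, searched on both strands, stood in 1 of 14 mitochondrial and 1 of 14 cytosolic genes with a window, against 4.38% of all genes.
WARS1, chr14:100375385-100375410, minus strand: tcagaaggGAAACTGAAAgaaagagg
EARS2, chr16:23557556-23557581, minus strand: tgccacgcTTTCGCTTTCccaagctg
HARS2 and HARS1, the mitochondrial and cytosolic histidine enzymes, lie head to head and are transcribed away from each other, with annotated starts 85 bases apart. The 86 bases from one start to the other are given on the plus strand, with the first base of HARS1 (which runs on the minus strand) and the first base of HARS2 in capitals.
HARS1 to HARS2, chr5:140691370-140691455, plus strand: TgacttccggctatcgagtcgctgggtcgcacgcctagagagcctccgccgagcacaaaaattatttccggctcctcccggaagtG

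Synthetase genes as a group lay slightly lower in siRAB38 cells than in NT cells, with similar medians in both compartments. Of the 36 genes, 30 had a log2 fold change below 0 (83.3%), against 48.4% of all genes, and 6 lay above 0. The median of the 36 genes was -0.08, or 94.8% of the NT level, while the median of all genes was 0.01 with quartiles of -0.11 and 0.12. In 12 of the 36 genes each siRAB38 array lay below each NT array (33.3%), against 17.2% of all genes, and in 3 both lay above (8.33%), against 18.8%. The other 21 genes overlapped between the groups. HARS1 alone had an unadjusted p under 0.05 in limma and was lower (2.78% of the members), against 3.10% of all genes with lower values, and no member passed on the higher side, against 3.75% of all genes. In the limma fit with the replicate number as a block the unadjusted p of HARS1 was 0.0686 (main adjusted p = 0.72), which leaves no member under 0.05. The count at this threshold is thus close to that of the array as a whole, while the share below 0 is larger than the background share.

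The median log2 fold change of the 16 mitochondrial genes was -0.08 (94.6% of NT), with 13 below 0 and a range from -0.37 to 0.11. For the 18 cytosolic genes it was -0.06 (96.1% of NT), with 15 below 0 and a range from -0.35 to 0.18. Each siRAB38 array lay below each NT array in 3 mitochondrial (18.8%) and 7 cytosolic genes (38.9%), against 17.2% of all genes. The mitochondrial share on this side was thus near that of all genes. Each siRAB38 array lay above each NT array in 1 mitochondrial (6.25%) and 2 cytosolic genes (11.1%), against 18.8% of all genes. Averaged over the mitochondrial genes, the deviation from each gene's own mean was -0.05 and -0.04 in siRAB38 arrays and 0.03 and 0.07 in NT arrays. Over the cytosolic genes the average deviations were -0.07 and -0.01 in siRAB38 arrays and 0.03 and 0.05 in NT arrays. The siRAB38 averages were below the NT averages in both sets, and the ranges of the sets overlapped almost wholly. The mitochondrial median minus the cytosolic median was -0.02, and it ran from -0.04 to 0.02 as each array was left out in turn, changing sign without the second NT array (0.003) and without the second siRAB38 array (0.02). These are bulk RNA values, in which fewer cells of a kind and less RNA per cell cannot be told apart. The arrays were also brought to one shared distribution before deposit, so a drop of all RNA together would not be seen.

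**Figure D1:**
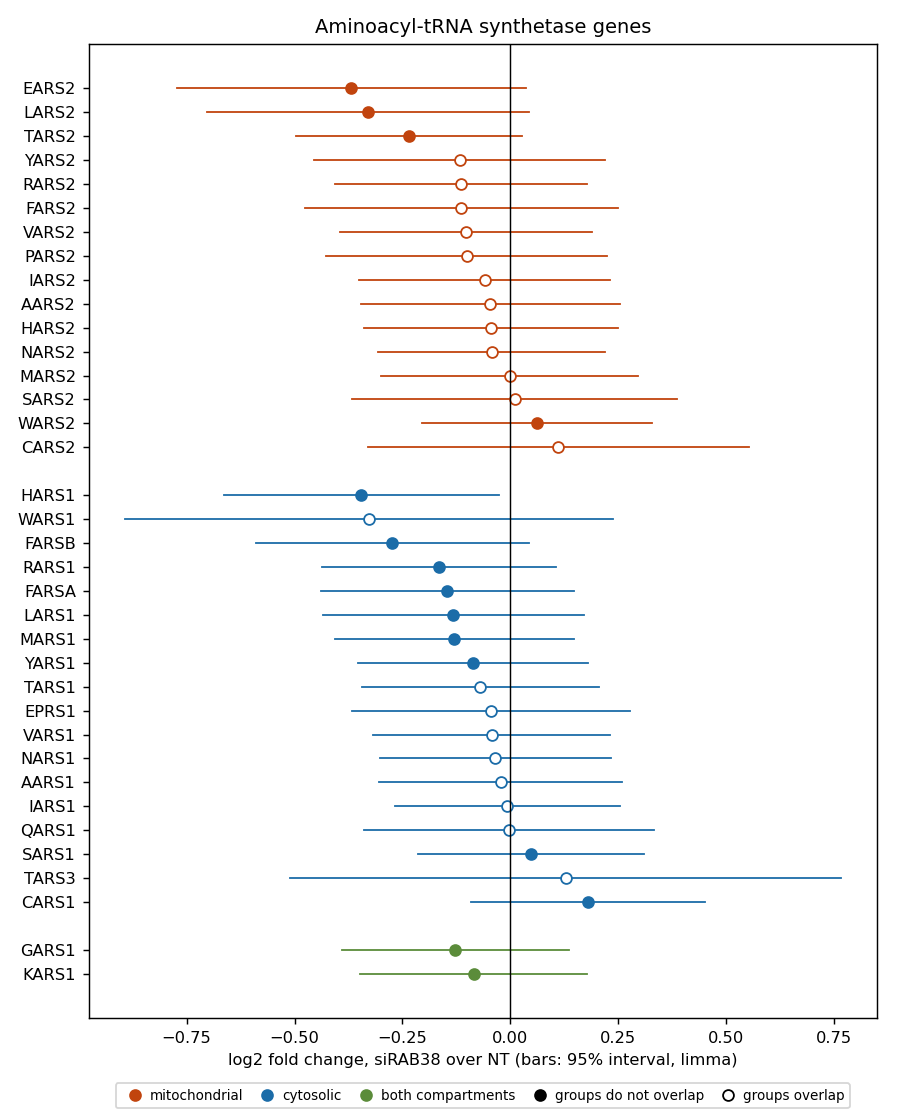
Log2 fold change, siRAB38 over NT, on the x axis for each of the 36 synthetase genes, with points at the estimate and bars for the 95% interval of the limma fit (2 arrays per group). Filled points mark genes whose siRAB38 and NT arrays do not overlap; 30 of 36 points lie left of 0, and only the HARS1 interval leaves 0 out.

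Among the mitochondrial genes, EARS2, LARS2 and TARS2 were without overlap, with the siRAB38 arrays lower. EARS2 charges both glutamate tRNA and, as the first step of an indirect route, glutamine tRNA. It had 4.30 and 4.69 in siRAB38 arrays and 4.84 and 4.88 in NT arrays, or 77.5% of the NT level (log2 fold change -0.37, SE 0.16, adjusted p = 0.724, limma). The first siRAB38 array was the lower one, and without it the log2 fold change was -0.17. LARS2, the mitochondrial leucine enzyme, had 5.74 and 6.04 in siRAB38 arrays and 6.30 and 6.14 in NT arrays (log2 fold change -0.33, SE 0.15, adjusted p = 0.724, limma), and -0.18 without the first siRAB38 array. TARS2, the mitochondrial threonine enzyme, was the tightest of the 3, with 5.84 and 5.82 in siRAB38 arrays and 6.05 and 6.08 in NT arrays (log2 fold change -0.23, SE 0.10, adjusted p = 0.724, limma). Its log2 fold change lay between -0.25 and -0.22 whichever array was left out.

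RARS2, VARS2 and YARS2 came next by unadjusted p, and their groups overlapped. RARS2, the arginine enzyme, had 7.52 and 7.44 in siRAB38 arrays and 7.52 and 7.67 in NT arrays (log2 fold change -0.11, SE 0.11). VARS2, the valine enzyme, had 4.80 and 4.64 in siRAB38 arrays and 4.85 and 4.80 in NT arrays (log2 fold change -0.10, SE 0.11). YARS2, the tyrosine enzyme, had 5.00 and 4.73 in siRAB38 arrays and 4.95 and 5.00 in NT arrays (log2 fold change -0.12, SE 0.13), and 0.02 without the second siRAB38 array. In all 3, one siRAB38 array stood level with an NT array.

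FARS2, PARS2, IARS2, AARS2, HARS2, NARS2 and MARS2 had log2 fold changes from -0.11 to -0.002 with overlapping groups. WARS2, which charges mitochondrial tryptophan tRNA, was the mitochondrial gene without overlap on the higher side, at 5.63 and 5.55 in siRAB38 arrays and 5.54 and 5.52 in NT arrays (log2 fold change 0.06, SE 0.10). CARS2, the cysteine enzyme, had the highest mitochondrial log2 fold change, 0.11 (SE 0.17), from 6.10 and 6.11 in siRAB38 arrays and 5.77 and 6.22 in NT arrays. The NT arrays lay on either side of the siRAB38 arrays there, and the log2 fold change was -0.11 without the first NT array. SARS2, the serine enzyme, had 5.60 and 5.27 in siRAB38 arrays and 5.46 and 5.39 in NT arrays (log2 fold change 0.01, SE 0.15).

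In the cytosol, the multisynthetase complex holds enzymes for several amino acids together with scaffold proteins. All 7 of its measured enzyme genes had log2 fold changes below 0, from -0.17 to -0.003, with a median of -0.09, and 4 of the 7 had the siRAB38 arrays lower without overlap, against 17.2% of all genes. The 13 cytosolic and dual genes outside the complex had a median of -0.07, with 10 below 0, 5 lower without overlap and 2 higher. The medians of both sets thus lay close together.

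RARS1, which charges arginine tRNA, had log2 values of 8.14 and 8.22 in siRAB38 arrays and of 8.31 and 8.38 in NT arrays (log2 fold change -0.17, SE 0.11, adjusted p = 0.783, limma). LARS1, the leucine enzyme and also a leucine sensor of the mTORC1 pathway, had 8.14 and 8.33 in siRAB38 arrays and 8.34 and 8.39 in NT arrays. Here the second siRAB38 array came close to the first NT array, and the log2 fold change of -0.13 (SE 0.12) was -0.04 when the first siRAB38 array was left out. MARS1, which charges methionine tRNA for initiation and elongation, had 8.048 and 8.003 in siRAB38 arrays and 8.098 and 8.213 in NT arrays (log2 fold change -0.13, SE 0.11). The remaining complex enzymes EPRS1 (glutamate and proline), IARS1 (isoleucine) and QARS1 (glutamine) overlapped between groups, with log2 fold changes of -0.04, -0.01 and -0.003. AIMP1, the only one of 3 listed scaffold genes measured here, had 7.69 and 7.42 in siRAB38 arrays and 7.65 and 7.74 in NT arrays, which overlap. Its log2 fold change of -0.14 (SE 0.14) was -0.002 without the second siRAB38 array.

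Cytosolic phenylalanine tRNA is charged by an enzyme built from FARSA, the catalytic subunit, and FARSB, the subunit with the editing site. FARSB had 8.67 and 8.47 in siRAB38 arrays and 8.79 and 8.91 in NT arrays, or 82.7% of the NT level (log2 fold change -0.27, SE 0.12, adjusted p = 0.73, limma). FARSA had 8.27 and 8.10 in siRAB38 arrays and 8.34 and 8.32 in NT arrays, or 90.3% of the NT level (log2 fold change -0.15, SE 0.11). Neither subunit overlapped between groups, and in both the second siRAB38 array was the lowest of the 4. Without that array the log2 fold change was -0.17 for FARSB and -0.06 for FARSA.

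HARS1 had the lowest log2 fold change among the cytosolic genes. Its log2 values were 6.30 and 6.08 in siRAB38 arrays and 6.49 and 6.58 in NT arrays, or 78.7% of the NT level (log2 fold change -0.35, SE 0.13, adjusted p = 0.72, limma, with an unadjusted p of 0.0387). The log2 fold change stayed between -0.45 and -0.24 as each array was left out, but the unadjusted limma p was 0.0897 without the first NT array, 0.159 without the second NT array and 0.12 without the second siRAB38 array. YARS1, the tyrosine enzyme, had a small but non-overlapping difference, with 7.24 and 7.16 in siRAB38 arrays against 7.29 and 7.28 in NT arrays (log2 fold change -0.09, SE 0.10).

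On the other side, CARS1, the cysteine enzyme, had 6.58 and 6.67 in siRAB38 arrays and 6.42 and 6.47 in NT arrays, or 113% of the NT level (log2 fold change 0.18, SE 0.11, adjusted p = 0.764, limma). SARS1, the serine enzyme, had 6.99 and 7.02 in siRAB38 arrays and 6.94 and 6.98 in NT arrays (log2 fold change 0.05, SE 0.10). In these cytosolic genes alone, each siRAB38 array lay above each NT array. TARS3, a second threonine enzyme, was dim and scattered, with 3.03 and 3.73 in siRAB38 arrays and 3.15 and 3.36 in NT arrays, and its log2 fold change of 0.13 (SE 0.25) became -0.22 without the second siRAB38 array. TARS1, VARS1, NARS1 and AARS1, for threonine, valine, asparagine and alanine, overlapped between groups with log2 fold changes between -0.07 and -0.02.

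**Figure D2:**
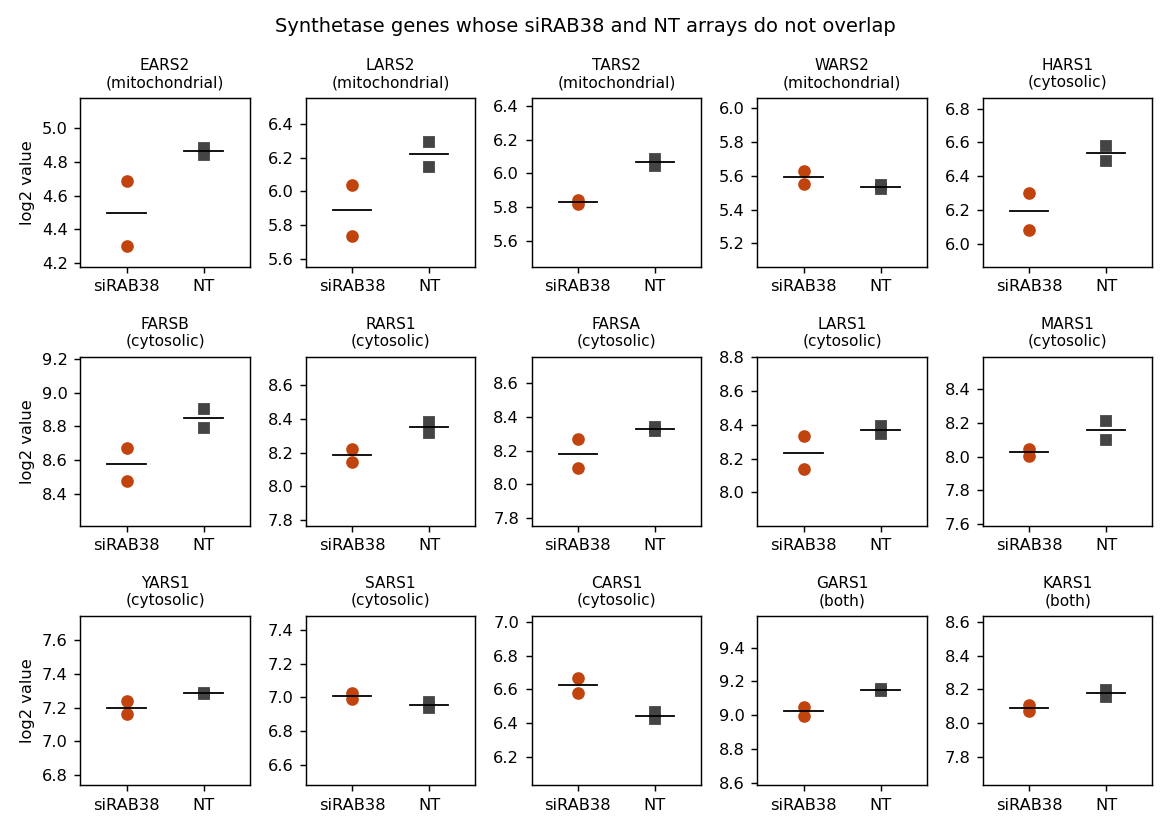
Log2 value per array (y axis, same span in each panel but placed at a different level) for the 15 synthetase genes whose siRAB38 and NT arrays do not overlap, with lines at the group means. CARS1, SARS1 and WARS2 have the siRAB38 arrays on top and the other 12 have them at the bottom.

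WARS1 had a large mean difference that came with wide scatter. Its log2 values were 7.58 and 7.99 in siRAB38 arrays and 8.36 and 7.87 in NT arrays (log2 fold change -0.33, SE 0.22, adjusted p = 0.799, limma). The second siRAB38 array lay above the second NT array, so the groups overlap, and the log2 fold change was between -0.57 and -0.09 as each array was left out. From high to low the order of the arrays was NT 1, siRAB38 2, NT 2, siRAB38 1. The same order was found in 21 of 27 measured interferon-stimulated genes, in 4 of the 36 synthetase genes (WARS1, AARS1, AARS2 and PARS2) and in 3.98% of all genes. All 27 interferon-stimulated genes had NT 1 and siRAB38 2 as their highest arrays. ISG15, a ubiquitin-like interferon product, had log2 values of 5.42 and 7.16 in siRAB38 arrays and of 7.68 and 6.73 in NT arrays. Over the 27 genes the average deviation was -0.77 and 0.40 in siRAB38 arrays and 0.61 and -0.24 in NT arrays, the median log2 fold change was -0.33, 26 lay below 0 and none was free of overlap. The interferon genes thus split the arrays across the groups, and their part in the WARS1 value was not tested.

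**Figure D3:**
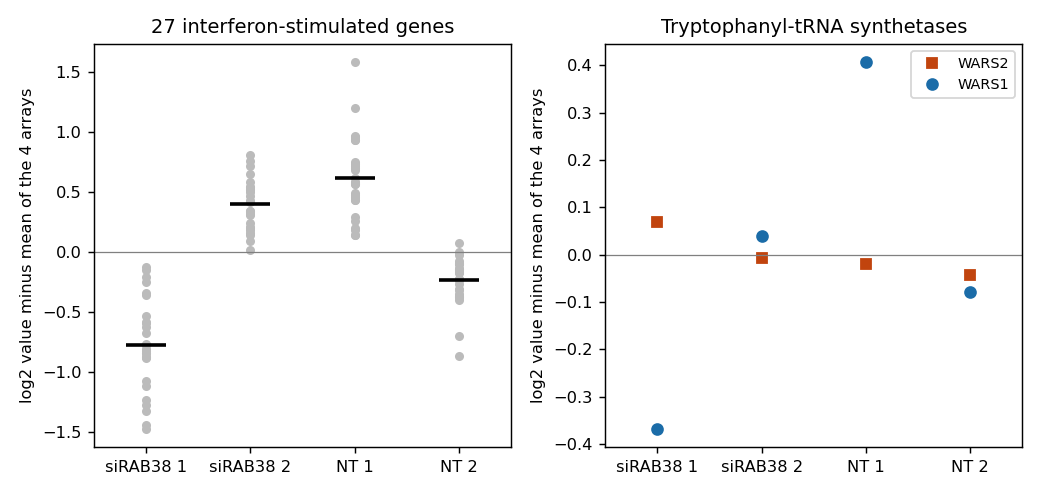
Log2 value minus the mean of the 4 arrays (y axis, with a wider scale in the left panel) for each array on the x axis, with 27 interferon-stimulated genes as grey points and their mean as a bar on the left, and WARS2 (squares) and WARS1 (circles) on the right. NT 1 and siRAB38 2 are the high arrays for the interferon genes and for WARS1, and WARS2 stays within 0.07 of its mean on all arrays.

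GARS1 and KARS1 each supply both the cytosol and mitochondria from 1 gene, for glycine and lysine. GARS1 had 8.996 and 9.050 in siRAB38 arrays and 9.144 and 9.156 in NT arrays (log2 fold change -0.13, SE 0.10). KARS1 had 8.07 and 8.11 in siRAB38 arrays and 8.15 and 8.20 in NT arrays (log2 fold change -0.09, SE 0.10). Neither gene overlapped between groups, and the gaps between arrays of a group were narrow in both.

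Setting each mitochondrial enzyme against the cytosolic enzyme for the same amino acid gave 17 pairs, which share genes where EPRS1 covers glutamate and proline and where FARS2 meets both FARSA and FARSB. Both genes lay below 0 in 14 pairs, both above 0 in the CARS and SARS pairs, and on opposite sides in the WARS pair. The mitochondrial gene had the lower log2 fold change in 11 pairs and the cytosolic gene in 6. The median difference, mitochondrial minus cytosolic, was -0.03, and it was 0.01 without the first NT array. The single differences ran from -0.32 for EARS2 minus EPRS1 to 0.39 for WARS2 minus WARS1. Since 13 of 16 mitochondrial and 15 of 18 cytosolic genes lie below 0 on the same 4 arrays, nothing is read from how many pairs share a sign.

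The within-pair difference was also taken on each array and centred over the 4 arrays. In 12 of 17 pairs it overlapped between siRAB38 and NT, in 3 it was lower and in 2 higher without overlap. Single genes over the whole array separated in 17.2% on the lower and 18.8% on the higher side, so these counts do not set the pairs apart. It was lower in both siRAB38 arrays for EARS2 minus EPRS1 (-0.24 and -0.09 in siRAB38 arrays, 0.16 and 0.16 in NT arrays), for LARS2 minus LARS1 and for TARS2 minus TARS1. It was higher in both siRAB38 arrays for HARS2 minus HARS1 (0.12 and 0.18 in siRAB38 arrays, -0.08 and -0.23 in NT arrays) and for MARS2 minus MARS1. In the histidine pair, whose shared stretch between the starts is shown above, the separation lay in the cytosolic gene. HARS2 had 5.99 and 5.82 in siRAB38 arrays and 5.98 and 5.92 in NT arrays (log2 fold change -0.04, SE 0.12), which overlap, while the HARS1 arrays did not.

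**Figure D4:**
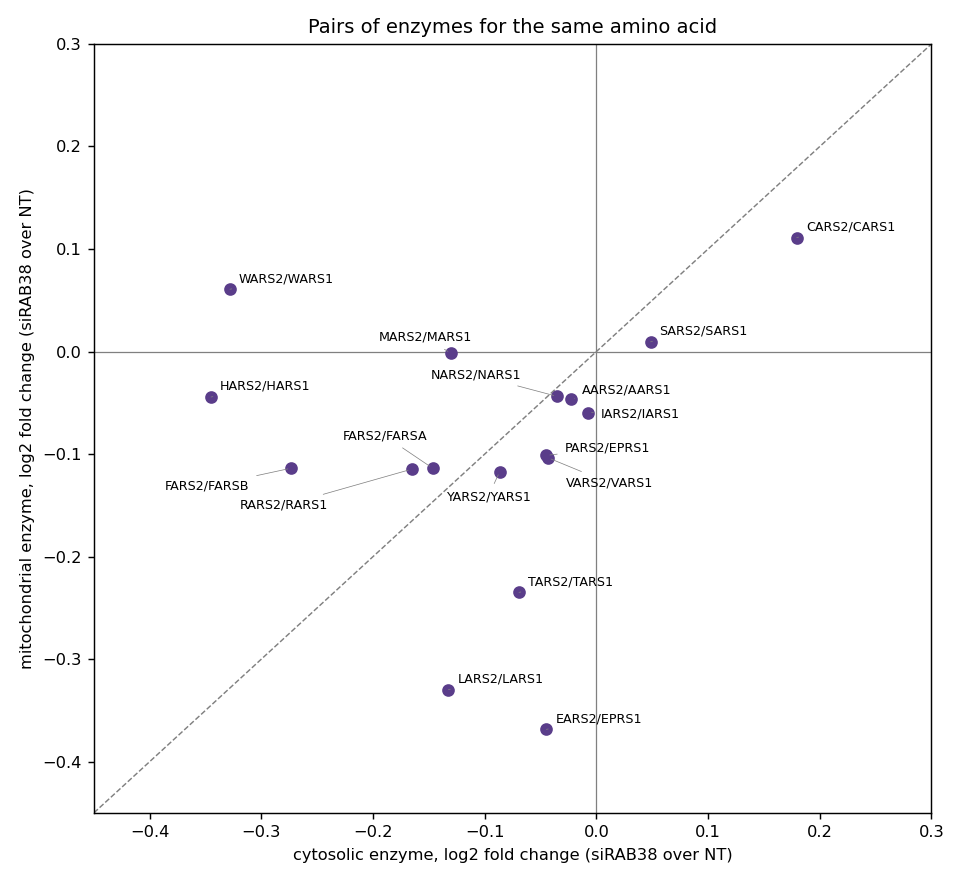
Log2 fold change, siRAB38 over NT, of the mitochondrial enzyme (y axis) and of the cytosolic enzyme for the same amino acid (x axis), 1 point for each of 17 pairs, with the dashed line where both are equal. Of the points, 14 lie in the lower left part of the plot, below 0 on both axes, with EARS2/EPRS1 farthest below the line and WARS2/WARS1 farthest above it.

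Several other synthetase genes share a start region with a neighbour on the opposite strand. These neighbours, with starts within 1000 bases, were picked by position. SARS2 overlapped between groups at 0.01, while MRPS12, a mitochondrial ribosomal protein gene whose start lies 181 bases away, had 4.24 and 4.07 in siRAB38 arrays and 4.34 and 4.40 in NT arrays (log2 fold change -0.22, SE 0.11). ORC3, a subunit of the origin recognition complex with its start 148 bases from that of RARS2, had 7.39 and 7.34 in siRAB38 arrays and 7.74 and 7.53 in NT arrays (log2 fold change -0.27, SE 0.12). WDR25, at 158 bases from WARS1, had 3.58 and 3.67 in siRAB38 arrays and 3.36 and 3.48 in NT arrays (log2 fold change 0.21, SE 0.11), on the other side of 0 from WARS1. UBFD1, at 352 bases from EARS2, overlapped between groups with a log2 fold change of 0.06, which was -0.06 without the second siRAB38 array. LYRM4 and TERF2IP, the neighbours of FARS2 and KARS1, also overlapped, with log2 fold changes of -0.05 and 0.04. Of these 6 neighbours, ORC3 and LYRM4 lay on the same side of 0 as their synthetase gene and the other 4 on the opposite side. MRPS12 was at -0.13 without the second siRAB38 array and ORC3 at -0.16 without the first NT array.

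Other promoter strings did not set one compartment apart so plainly as the ATF4 letters. CACGTG, the E-box bound by MYC and related factors, stood in 3 of 14 mitochondrial and 1 of 14 cytosolic genes with a window, against 8.77% of all genes. GCGC followed by 2 bases of any kind and GCGC, the core of the NRF1 element found at many genes for mitochondrial proteins, stood in 3 of 14 mitochondrial and 3 of 14 cytosolic genes, against 9.98%. No match of one string overlapped a match of another in a synthetase gene.

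MYC, which drives genes of ribosome and tRNA synthesis, had log2 values of 5.49 and 4.93 in siRAB38 arrays and of 5.64 and 5.90 in NT arrays (log2 fold change -0.57, SE 0.22, adjusted p = 0.72, limma). Without the second siRAB38 array the log2 fold change was -0.29, and over all arrays left out in turn it ran from -0.84 to -0.29. Its array order, NT 2 highest and siRAB38 2 lowest, was shared by 4 of the 36 synthetase genes (HARS1, FARSB, MARS1 and TARS2) and by 4.68% of all genes. In this order both siRAB38 arrays lie below both NT arrays, which held for 33.3% of the synthetase genes and 17.2% of all genes. Every gene with this order is thus also in that count, and nothing further is read from the shared order. HARS1, FARSB, MARS1 and TARS2 are not among the genes with the E-box letters in their window. The window is short and letters are not measured binding, so nothing about MYC is read from this. The part of MYC in the synthetase values was not tested.

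ATF4 itself had 7.70 and 7.68 in siRAB38 arrays and 7.84 and 7.58 in NT arrays, which overlap (log2 fold change -0.02, SE 0.13). The 23 listed genes of the amino acid response, ATF4 included, had a median of -0.03 with 15 below 0, and the groups did not overlap in 3 with lower values (13% of the list, against 17.2% of all genes) and 5 with higher siRAB38 values (21.7%, against 18.8%). These shares are near those of the array as a whole. PSAT1, an enzyme of serine synthesis, had 7.27 and 7.16 in siRAB38 arrays and 7.95 and 7.98 in NT arrays, or 59.6% of the NT level (log2 fold change -0.75, SE 0.11, adjusted p = 0.72, limma). ATF3 and DDIT3, stress-induced transcription factors, had log2 fold changes of 0.51 (SE 0.16) and 0.37 (SE 0.13), and SESN2, an inhibitor of mTORC1, 0.37 (SE 0.18). Without the second siRAB38 array ATF3 was at 0.31, and SESN2 was at 0.21 without the first NT array and at 0.20 without the first siRAB38 array. Of the 8 synthetase genes with the ATF4 letters, CARS1 alone lay above 0 and the other 7 below it.

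Glutamine tRNA in mitochondria is made in a second step, in which the GatCAB amidotransferase (QRSL1, GATB and GATC) converts the glutamate that EARS2 has attached. QRSL1, its catalytic subunit, had 5.09 and 5.43 in siRAB38 arrays and 5.03 and 5.03 in NT arrays (log2 fold change 0.23, SE 0.15). GATC had 7.222 and 6.999 in siRAB38 arrays and 7.283 and 7.333 in NT arrays (log2 fold change -0.20, SE 0.12), and GATB overlapped at 0.18 (SE 0.14). Without the second siRAB38 array these log2 fold changes were 0.06 for QRSL1, -0.09 for GATC and 0.04 for GATB. The subunits thus lay on both sides of 0, while EARS2 was among the lowest members. MTFMT, which formylates the methionine that MARS2 loads onto the initiator tRNA, had 5.84 and 5.91 in siRAB38 arrays and 6.02 and 5.99 in NT arrays (log2 fold change -0.13, SE 0.10).

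The factors that take charged tRNA onward lay on both sides of 0. Of 7 measured mitochondrial elongation, initiation and release factors, 3 were below 0 and 4 above it, and the median was 0.004. MTRF1L, a mitochondrial release factor, had 4.99 and 5.10 in siRAB38 arrays and 4.65 and 4.81 in NT arrays (log2 fold change 0.31, SE 0.12, adjusted p = 0.72, limma). GFM1, a mitochondrial elongation factor, had a log2 fold change of -0.16 (SE 0.14) with overlapping groups, and -0.04 without the first siRAB38 array. In the cytosol, 3 of 4 measured subunits of elongation factor 1 lay below 0, and EEF1B2, an exchange factor of that complex, had 5.32 and 5.44 in siRAB38 arrays and 5.45 and 5.59 in NT arrays (log2 fold change -0.14, SE 0.12), or -0.07 without the second NT array and -0.07 without the first siRAB38 array. Of 5 measured genes for proofreading and tRNA end repair, 4 lay below 0, with DTD1, which removes D-amino acids from tRNA, at 6.79 and 6.75 in siRAB38 arrays and 6.90 and 7.05 in NT arrays (log2 fold change -0.20, SE 0.11), or -0.12 without the second NT array.

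Synthetases also fall into structural classes that do not follow the compartments. Among the 18 class I genes the median log2 fold change was -0.10 and 15 were below 0, and the 17 class II genes had a median of -0.07, with 14 below 0. EPRS1 joins an enzyme of each class in 1 protein and was counted in neither. As with the compartments, the classes lay close to each other.

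By direction alone, 21 of the 36 genes kept the sign of their log2 fold change whichever array was left out, and these were 8 of 16 mitochondrial, 11 of 18 cytosolic and both dual genes. The other 15 changed sign without at least 1 array. Some genes that kept theirs came close to 0. Without the first siRAB38 array the log2 fold change was -0.003 for PARS2, -0.01 for TARS1 and 0.02 for WARS2. It was -0.07 for MARS1, -0.04 for RARS2 and -0.02 for NARS2 without the second NT array. Without the second siRAB38 array it was -0.05 for YARS1 and -0.02 for VARS2. SARS1 was at 0.03 without the first NT array or the second siRAB38 array.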

How the data were processed

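Expression was measured on Affymetrix arrays from total RNA of LN229 cells. The authors deposited 1 table of log2 values made with RMA (background correction, quantile normalization, probe summary), with affy 1.60.0 and R 3.5.1 listed in the submitters' processing notes. The genome build and the grouping of probes are not given in the sources used here. Quantile normalization hides a shift shared by all genes, and the number of arrays limits the precision. The 22458 rows with 1 gene symbol were used, out of 23786, and the 1328 without a symbol were left out. Groups followed the sample titles. The deposited log2 values were fitted with limma 3.58.1 in R 4.3.3 (lmFit, eBayes), and adjusted by Benjamini-Hochberg over all 22458 genes at a threshold of 0.05. The fit was first tested on simulated data with shifts far larger than any synthetase log2 fold change. That test does not bear on changes as small as those described here. Arrays of the same replicate number had no shared deviation over all genes (correlation -0.05). Whether they were handled as pairs is not stated in the labels, and this value cannot settle it. Per-array values were planned for members without overlap, the 6 mitochondrial and the 6 cytosolic or dual genes with the smallest unadjusted p and their partners, and up to 4 genes of each accompanying list by p; the neighbours MRPS12, ORC3, WDR25, UBFD1, LYRM4 and TERF2IP were chosen outside this rule. Members and lists were chosen with earlier results of these data known. Promoter windows came from RefSeq (GRCh38.p14). Alternatives were array-median centring, quantile normalization, leaving out the dimmest 30% of genes, a replicate block, other variance settings, other places for GARS1, KARS1 and TARS3, and leaving out each array.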

Additional observations from a re-analysis of the deposited data

How the results depend on the processing

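No gene passed the adjusted threshold under any limma alternative or the t-test that the methods name, and the count at an unadjusted p under 0.05 ran from 920 to 1624 as each array was left out. With the replicate block that count was 1249, the mitochondrial and cytosolic medians stayed at -0.08 and -0.06, and the block was not applied to counts of arrays without overlap. HARS1 and MYC were no longer under an unadjusted 0.05 with it, at limma values of 0.0686 and 0.0866. Without the second siRAB38 array EARS2 and LARS2 came under it, at 0.0138 and 0.038. Centring each array on its median left 5 mitochondrial genes without overlap on the lower side (NARS2 and VARS2 joined, and TARS1 among the cytosolic genes), as did counting GARS1 and KARS1 as mitochondrial. The mitochondrial minus the cytosolic median was -0.041 after quantile normalization, -0.0032 with GARS1 and KARS1 as cytosolic, -0.036 with them as mitochondrial and -0.011 without TARS3. IARS1 and QARS1 became 0.0091 and 0.0052 after quantile normalization, and SARS2 became -0.0021 after centring. Of the 36 genes, 33 kept their direction under centring, quantile normalization, the dim-gene filter and the block.

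Leaving out each array in turn gave cytosolic medians from -0.090 to -0.049 and a difference of medians from -0.038 to 0.023. The median within-pair difference ran from -0.047 to 0.010. Below 0 were 10 to 13 of the 16 mitochondrial and 12 to 15 of the 18 cytosolic genes. After quantile normalization of all 4 arrays, 13 genes of each set were below 0. With an array left out, 6 to 10 mitochondrial and 9 to 12 cytosolic genes were without overlap on the lower side, a criterion that fewer arrays meet more easily. The log2 fold changes that changed sign ran from -0.071 to 0.025 for AARS1, -0.16 to 0.073 for EPRS1, -0.028 to 0.012 for IARS1, -0.079 to 0.0084 for NARS1, -0.14 to 0.13 for QARS1, -0.22 to 0.48 for TARS3, -0.10 to 0.013 for VARS1, -0.13 to 0.036 for AARS2, -0.11 to 0.34 for CARS2, -0.24 to 0.0092 for FARS2, -0.13 to 0.038 for HARS2, -0.14 to 0.024 for IARS2, -0.094 to 0.090 for MARS2, -0.16 to 0.18 for SARS2, -0.25 to 0.017 for YARS2, -0.15 to 0.11 for ATF4 and -0.061 to 0.17 for UBFD1. With 2 arrays a group, the 95% intervals of all 36 genes but HARS1 include 0, and that of TARS3, a dim gene, is the widest.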
